A study of Mus musculus with 4 samples.

Results

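The genes described here encode 10 transcription factors that steer the formation of fat cells: Pparg, Cebpa, Cebpb, Cebpd, Zfp423, Zfp521, Ebf1, Gata2, Stat5a and Nr2f2. They were taken by gene symbol and not by a rule on their values, though with earlier results of these data known. All 10 were found among the 55536 rows of a table of gene expression. RNA was sequenced from the stromal vascular fraction (SVF), the cells other than adipocytes that are released when fat is digested, of inguinal white adipose tissue (iWAT). Donors were wild-type male mice at postnatal day 21. The libraries were ObF1 1,3BD, LnF1 1,3BD, ObF1 water and LnF1 water, 1 of each, and each was a pool of 3 mice. The labels call the offspring ObF1 and LnF1, and the title of the series is about parental obesity. 1,3BD and water are treatments as the sample titles write them, and neither the dose nor the animals that received them are given in the sources used here. With 1 pooled library for each combination, no value below has a replicate.

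Fat cells arise from fibroblast-like progenitors through a relay of transcription factors, worked out largely in mouse preadipocyte lines. C/EBPβ and C/EBPδ, encoded by Cebpb and Cebpd, are induced early and activate Pparg and Cebpa. PPARγ and C/EBPα then sustain each other's expression and switch on the genes of lipid uptake, synthesis and storage. Zfp423 and Ebf1 favour commitment to the fat lineage, Zfp521 opposes both, and Stat5a carries growth hormone signals that favour differentiation. Gata2 and Nr2f2, which encodes COUP-TFII, have been reported to restrain the process in preadipocytes.

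The bases before the transcription starts are shown for 4 of the genes whose levels passed a test below, with the motifs found there. Each line holds the 250 bases upstream of a RefSeq start in GRCm38.p6, the patch release of mm10, written 5′ to 3′ on the strand of the gene. Capitals mark every match to any of 8 short motifs searched on both strands.
Cebpa, chr7:35119043-35119292, plus strand: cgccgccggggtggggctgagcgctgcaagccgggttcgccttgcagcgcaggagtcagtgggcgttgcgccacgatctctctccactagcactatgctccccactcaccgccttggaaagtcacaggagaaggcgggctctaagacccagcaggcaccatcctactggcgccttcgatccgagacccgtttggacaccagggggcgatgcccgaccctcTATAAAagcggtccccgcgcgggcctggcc
Cebpb, chr2:167688665-167688914, plus strand: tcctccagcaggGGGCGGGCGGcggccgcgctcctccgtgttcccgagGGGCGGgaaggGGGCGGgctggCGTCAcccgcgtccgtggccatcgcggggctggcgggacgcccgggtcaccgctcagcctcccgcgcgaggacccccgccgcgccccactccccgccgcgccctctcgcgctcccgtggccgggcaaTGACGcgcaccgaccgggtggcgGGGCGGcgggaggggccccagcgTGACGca
Nr2f2, chr7:70366747-70366996, minus strand: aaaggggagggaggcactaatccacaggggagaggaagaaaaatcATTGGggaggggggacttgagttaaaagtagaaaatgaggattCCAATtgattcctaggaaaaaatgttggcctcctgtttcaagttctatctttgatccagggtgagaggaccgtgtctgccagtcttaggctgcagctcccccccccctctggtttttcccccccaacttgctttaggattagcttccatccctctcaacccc
Pparg start 1, chr6:115360894-115361143, plus strand: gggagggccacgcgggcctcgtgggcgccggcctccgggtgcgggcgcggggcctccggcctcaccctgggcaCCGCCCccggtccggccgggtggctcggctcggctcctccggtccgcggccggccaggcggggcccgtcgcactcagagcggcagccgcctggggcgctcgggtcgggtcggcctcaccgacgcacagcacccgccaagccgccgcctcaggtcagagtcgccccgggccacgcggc
Pparg start 2, chr6:115362099-115362348, plus strand: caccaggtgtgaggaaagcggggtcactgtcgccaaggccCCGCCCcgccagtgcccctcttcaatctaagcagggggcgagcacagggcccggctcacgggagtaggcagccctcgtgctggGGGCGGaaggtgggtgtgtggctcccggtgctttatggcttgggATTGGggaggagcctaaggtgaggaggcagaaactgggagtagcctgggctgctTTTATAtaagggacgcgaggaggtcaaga
Pparg start 3, chr6:115421816-115422065, plus strand: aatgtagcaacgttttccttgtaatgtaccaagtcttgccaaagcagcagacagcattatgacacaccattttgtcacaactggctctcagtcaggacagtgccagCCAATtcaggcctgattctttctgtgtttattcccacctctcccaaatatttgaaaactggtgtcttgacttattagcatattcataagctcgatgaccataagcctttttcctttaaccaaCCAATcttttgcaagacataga
From the RefSeq table, 14 such windows were taken for 8 of the 10 genes. RefSeq gave none for Cebpd, and the chromosome of Zfp521 was left out here, so both are named only. The motifs were the CCAAT box (CCAAT), the GC box (GGGCGG), the TATA box (TATAAA), the palindrome bound by C/EBP proteins (TTGCGCAA), a core of the CREB site (TGACG), the E-box (CACGTG), the STAT site (TTCNNNGAA) and the GATA site (AGATAA). The Cebpa window held 1 match, a TATA box at -30 to -25 from the start. The Cebpb window held 5 GC boxes, of which those at -238 to -233 and at -234 to -229 overlap, and 3 matches to TGACG, 1 on the opposite strand, at -180 to -176, -53 to -49 and -7 to -3. The Nr2f2 window held CCAAT boxes at -205 to -201 and -162 to -158. At start 3 of Pparg, CCAAT boxes lay at -144 to -140 and -22 to -18, while start 1 held a GC box at -177 to -172. Of 32851 windows of the same length, 33.8% held a CCAAT box, 32.7% a GC box, 17.8% TGACG and 12.4% a TATA box. The C/EBP palindrome, present in 0.164% of all windows, the E-box (6.02%), the STAT site (7.02%) and the GATA site (9.99%) matched none of the 14 windows. The GC content of the windows was 81.6% for Cebpb and 66.4% for Cebpa, 50% for Nr2f2 and 82.4%, 63.6% and 40.8% at the 3 starts of Pparg, against a median of 52.4% over all windows. Expression was summed over each gene, so the starts of Pparg, a gene known to make a broad and a fat-restricted form from different promoters, were not measured apart.

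The libraries held between 24586827 and 26000090 recovered reads. Values are scaled CPM, reads relative to the library total adjusted by a scaling factor in the deposited table, and 1 read was worth 0.0359 to 0.0434 CPM. Exact 95% counting intervals of the 10 genes reached between 2.4% of the level, for Ebf1 in ObF1 1,3BD, and 29.8%, for Zfp423 in ObF1 1,3BD, and cover counting error only, not the spread between animals. The labelled cell fraction was checked against marker genes. The summed level of 11 adipose progenitor markers was 1260 CPM in ObF1 1,3BD, 1166 CPM in LnF1 1,3BD, 1961 CPM in ObF1 water and 1991 CPM in LnF1 water. These markers did not move together. Pdgfrb, F3, Icam1 and Dpp4 were lower in both 1,3BD libraries than in both water libraries. Pdgfra, Cd55 and Fabp4, the last also a target gene followed below, were higher. The other progenitor markers did not split by treatment. White blood cell markers, which an SVF usually holds, summed to between 3.08 and 7.34 CPM, with 9 of 11 under 1 CPM in every library and 4 at 0. The 7 endothelial markers summed to 5.66 and 3.59 CPM in the 1,3BD libraries and to 31.0 and 27.3 CPM in the water libraries. The labels do not say whether the cells were sorted or cultured before RNA was taken. The 7 mature adipocyte markers summed to 2.96 CPM in ObF1 1,3BD, 6.10 in LnF1 1,3BD, 5.26 in ObF1 water and 2.76 in LnF1 water. Among these, Adipoq and Lep had 0 reads throughout, Plin1 had 49 and 142 reads in ObF1 1,3BD and LnF1 1,3BD, against 1 and 2 in ObF1 water and LnF1 water, and Adrb3 had 15 and 15 reads in ObF1 1,3BD and LnF1 1,3BD, against 119 and 54 in ObF1 water and LnF1 water. The sum of 8 mural or smooth muscle markers split by treatment, at 230 and 202 CPM in ObF1 1,3BD and LnF1 1,3BD. It was 9156 and 8487 CPM in ObF1 water and LnF1 water, mostly from Acta2. Notch3 did not split, at 24.5 CPM in ObF1 1,3BD, 61.5 in LnF1 1,3BD, 51.7 in ObF1 water and 70.3 in LnF1 water. Every other marker of this list was lower in both 1,3BD libraries than in both water libraries. The part of these markers in the 1,3BD differences of the 10 genes was not tested. In pooled RNA of this kind, fewer cells of a type and less RNA per cell cannot be told apart.

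Per kilobase of exon, the scale on which different genes can be set side by side, Cebpb had the highest mean level over the 4 libraries and Zfp423 the lowest. Cebpb averaged 31.3 CPM per kilobase, with a range of 14.4 to 44.4. Ebf1 averaged 18.9 (14.5 to 25.7), Cebpd 17.4 (10.5 to 25.5), Cebpa 12.4 (6.81 to 19.5), Nr2f2 10.6 (4.84 to 16.6) and Zfp521 9.29 (7.37 to 13.2) CPM per kilobase. Pparg averaged 5.21 (1.93 to 7.98), Stat5a 2.60 (2.14 to 2.96), Gata2 1.83 (1.70 to 1.98) and Zfp423 0.523 (0.314 to 0.878) CPM per kilobase. The ranges of neighbours in this order overlapped down to Stat5a, and those of Stat5a, Gata2 and Zfp423 did not. Pparg varied most between libraries, 4.14-fold from the highest to the lowest, and Gata2 least, 1.17-fold.

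**Figure D1:**
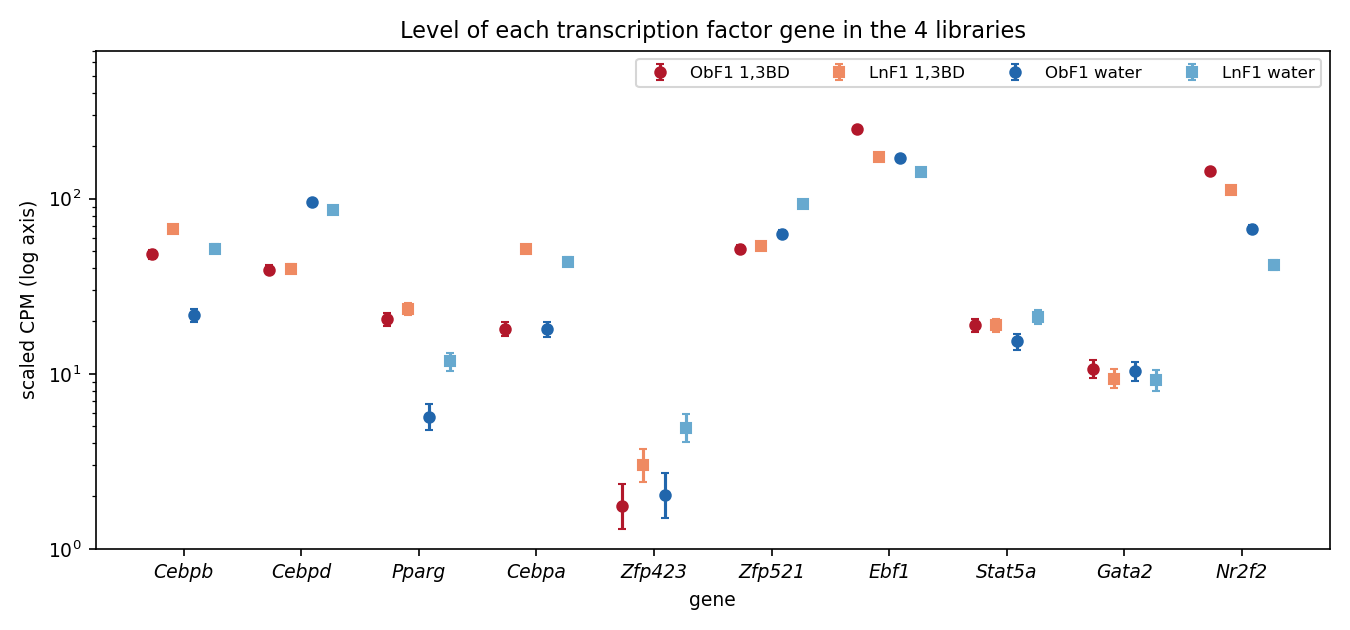
Scaled CPM of each of the 10 genes (log axis) in the 4 libraries, 1 point per library, with bars for exact 95% counting intervals. Cebpa separates the ObF1 libraries (18.1 and 17.9 CPM) from the LnF1 libraries (51.5 and 43.7 CPM). Cebpd, Nr2f2, Pparg and Zfp521 separate the 1,3BD from the water libraries.

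Among the early factors, Cebpb (chr2:167688915-167690418, plus strand, mm10, a gene of 1 exon) stood at 48.0 CPM in ObF1 1,3BD, 66.8 in LnF1 1,3BD, 21.6 in ObF1 water and 51.8 in LnF1 water. ObF1 water was the low library, and the counting intervals of ObF1 1,3BD and LnF1 water overlapped. Cebpd (chr16:15887286-15891031, plus strand, 1 exon) stood at 39.3 CPM in ObF1 1,3BD, 39.8 in LnF1 1,3BD, 95.6 in ObF1 water and 86.0 in LnF1 water. Both 1,3BD libraries lay below both water libraries, and the 1,3BD libraries overlapped within counting error. On the opposite strand, exons of Tmem189 cover 20.7% of the Cebpb exon bases and exons of Spidr 15% of those of Cebpd, and the use of strand in counting is not given in the sources used here, so some reads could belong to those neighbours.

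Of the terminal regulators, Pparg (chr6:115360951-115490399, plus strand), which encodes the nuclear receptor PPARγ, stood at 20.5 CPM in ObF1 1,3BD, 23.6 in LnF1 1,3BD, 5.69 in ObF1 water and 11.8 in LnF1 water. These values rest on 547, 657, 131 and 277 reads in the same order. Both 1,3BD libraries were above both water libraries, and ObF1 water was the lowest. Cebpa (chr7:35119293-35121928, plus strand, 1 exon), which encodes C/EBPα, stood at 18.1 CPM in ObF1 1,3BD, 51.5 in LnF1 1,3BD, 17.9 in ObF1 water and 43.7 in LnF1 water. Here the libraries parted by parents: the ObF1 libraries overlapped within counting error and lay below both LnF1 libraries.

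Among the commitment factors, Zfp423 (chr8:87661810-87959595, minus strand), a zinc finger protein of committed preadipocytes, was sparse, with 1.76 CPM in ObF1 1,3BD, 3.01 in LnF1 1,3BD, 2.04 in ObF1 water and 4.92 in LnF1 water, from 47, 84, 47 and 116 reads. Both ObF1 libraries were below both LnF1 libraries, although the intervals of ObF1 water and LnF1 1,3BD overlapped. Its antagonist Zfp521 (chr18:13687013-13972787, minus strand) stood at 51.8 CPM in ObF1 1,3BD, 53.7 in LnF1 1,3BD, 63.1 in ObF1 water and 92.7 in LnF1 water, with LnF1 water the high library. Ebf1 (chr11:44617317-45008091, plus strand), an early B-cell factor gene that acts in fat as well, was the most abundant by CPM, at 250.8 in ObF1 1,3BD, 172.7 in LnF1 1,3BD, 171.4 in ObF1 water and 141.4 in LnF1 water. ObF1 1,3BD was the high library, and LnF1 1,3BD and ObF1 water overlapped within counting error.

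Stat5a (chr11:100859351-100885169, plus strand), a signal transducer of growth hormone and prolactin, stood at 18.9 CPM in ObF1 1,3BD, 18.9 in LnF1 1,3BD, 15.3 in ObF1 water and 21.1 in LnF1 water. ObF1 water was the low library, and the other neighbours in order overlapped within counting error. On the opposite strand, exons of Stat3 cover 1.01% of the Stat5a exon bases. Stat3 held 8821 to 12117 reads and Stat5a 352 to 527, so some reads of Stat5a could belong to Stat3. Of the reported restrainers, Gata2 (chr6:88193891-88207032, plus strand), a zinc finger factor, stood at 10.7 CPM in ObF1 1,3BD, 9.40 in LnF1 1,3BD, 10.3 in ObF1 water and 9.17 in LnF1 water. Libraries next to each other in level overlapped in every case. Nr2f2 (chr7:70351944-70366735, minus strand), an orphan nuclear receptor gene, stood at 143.5 CPM in ObF1 1,3BD, 111.5 in LnF1 1,3BD, 67.4 in ObF1 water and 41.8 in LnF1 water. Its 4 libraries were apart beyond counting error, the 1,3BD libraries above the water libraries and, within each treatment, ObF1 above LnF1. Exons of B130024G19Rik, on the opposite strand, cover 7.5% of the Nr2f2 exon bases, and that gene held 16 to 58 reads.

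The first comparison set the ObF1 offspring against the LnF1 offspring over both treatments. Cebpa fell in ObF1, with a mean of 18.01 CPM against 47.6 CPM in LnF1, 2.63-fold lower. It was the 1 of 10 genes that passed, and none rose. Over all 12838 genes tested, 0.101% passed as lower and 0.195% as higher. The log2 difference of Cebpa was -1.39 (SE 0.22, limma adjusted p = 0.0283 by the Benjamini-Hochberg method over all genes tested), and 0.631% of genes tested had a lower value. Differences are ObF1 minus LnF1 of log2(CPM + 0.0796), a pseudocount worth 2 reads. The additive fit of parents and treatment left 1 residual degree of freedom, so an SE rests on how far a difference failed to repeat in the other treatment and is moderated by genes of similar level.

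The other 9 genes did not pass. Cebpb differed by -0.87 (SE 0.24, limma adjusted p = 0.206), Zfp423 by -0.99 (SE 0.37, adjusted p = 0.367) and Pparg by -0.62 (SE 0.28, adjusted p = 0.452). These genes and Cebpa had the 4 negative values with an unadjusted p under 0.05, while Nr2f2, at 0.53 (SE 0.20, adjusted p = 0.367), was the 1 positive value of that kind. Over all genes tested, 5.48% had a negative and 5.36% a positive value at that level. Ebf1 differed by 0.41 (adjusted p = 0.476), Zfp521 by -0.30 (adjusted p = 0.626), Stat5a by -0.23 (adjusted p = 0.759), Gata2 by 0.18 (adjusted p = 0.829) and Cebpd by 0.07 (adjusted p = 0.932, or -0.04 with library totals in place of the deposited scaling). The median over the 10 genes was -0.27, beside 0.01 over all genes tested. On recovered reads, edgeR and DESeq2 each called 1 of the 10 lower and none higher, where edgeR called 0.101% of all genes lower and 0.148% higher and DESeq2 0.374% and 0.537%. Cebpa kept its direction but lost the call with any 1 library left out, at -1.40 without ObF1 1,3BD, -1.28 without LnF1 1,3BD, -1.39 without ObF1 water and -1.51 without LnF1 water (adjusted p 0.997 to 1.00). It lost the call also without a term for treatment (adjusted p = 1.00) and among genes with a mean of at least 5 CPM (adjusted p = 0.0676).

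**Figure D2:**
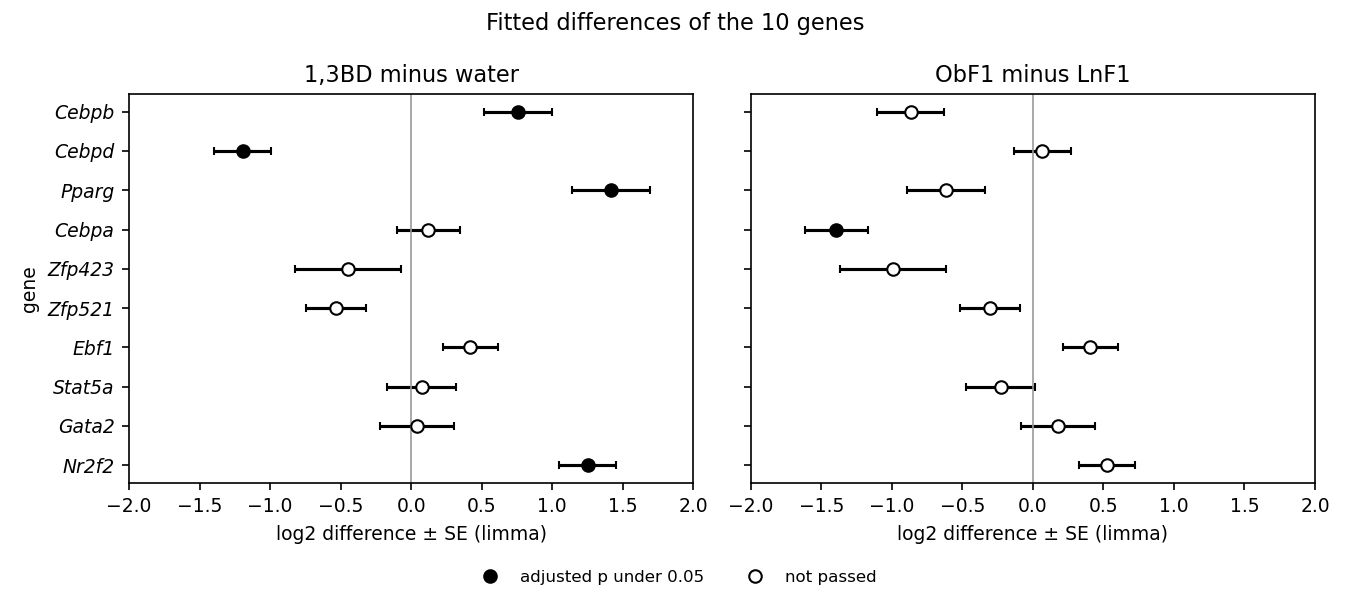
Log2 differences of the 10 genes from limma with bars of 1 SE, 1,3BD minus water in the left panel and ObF1 minus LnF1 in the right panel, with filled points for an adjusted p under 0.05. In the left panel Pparg (1.42), Nr2f2 (1.25), Cebpb (0.76) and Cebpd (-1.20) are filled, and in the right panel Cebpa (-1.39).

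The other comparison set 1,3BD against water over both offspring groups. Pparg, Nr2f2 and Cebpb rose, and Cebpd fell. The summed mural markers, mostly Acta2, were at 230 and 202 CPM in ObF1 1,3BD and LnF1 1,3BD. They were at 9156 and 8487 CPM in ObF1 water and LnF1 water. The mean of Pparg was 22.0 CPM in 1,3BD and 8.72 CPM in water, 2.67-fold higher. That of Nr2f2 was 127 CPM in 1,3BD and 54.6 CPM in water, 2.38-fold higher. Cebpb averaged 57.4 CPM in 1,3BD and 36.7 CPM in water, 1.69-fold higher. Cebpd averaged 39.6 CPM in 1,3BD and 90.8 CPM in water, 2.29-fold lower, opposite in direction to its partner in early induction.

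The log2 differences were 1.42 for Pparg (SE 0.28, limma adjusted p = 0.00201), 1.25 for Nr2f2 (SE 0.20, adjusted p = 0.000612), 0.76 for Cebpb (SE 0.24, adjusted p = 0.0246) and -1.20 for Cebpd (SE 0.20, adjusted p = 0.000869). Thus 3 of 10 genes passed as higher and 1 as lower, where 19.2% of all genes tested passed as higher and 24.8% as lower, so treatment calls were common throughout the table. Of all genes tested, 95.1% had a lower value than Pparg and 13.7% a lower value than Cebpd. With library totals in place of the deposited scaling, the median of all genes was 0.19 instead of -0.06, and the calls were 3687 higher and 2270 lower (28.7% and 17.7%) instead of 2466 higher and 3189 lower. The 4 called genes kept their direction and call there, and Ebf1 was called as well (0.67, adjusted p = 0.0174).

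The remaining 6 genes did not pass. Zfp521 differed by -0.54 (SE 0.21, limma adjusted p = 0.0610), Ebf1 by 0.42 (SE 0.20, adjusted p = 0.103) and Zfp423 by -0.45 (SE 0.37, adjusted p = 0.349). Cebpa differed by 0.12 (adjusted p = 0.675), Stat5a by 0.07 (adjusted p = 0.823) and Gata2 by 0.04 (adjusted p = 0.910). Cebpd passed in all fits with 1 library left out, with a difference of -1.12 to -1.27. These fits drop the term for parents, so their values also hold part of the difference between parents. Pparg lost the call without ObF1 1,3BD (1.52, adjusted p = 0.0674), without LnF1 1,3BD (1.32, adjusted p = 0.0718) and without ObF1 water (0.90, adjusted p = 0.114). Nr2f2 lost it without ObF1 1,3BD (1.07, adjusted p = 0.0531) and without LnF1 water (0.91, adjusted p = 0.0879). Cebpb lost it without ObF1 1,3BD (1.00, adjusted p = 0.330), without LnF1 1,3BD (0.52, adjusted p = 0.563) and without ObF1 water (0.13, adjusted p = 0.807), stood at 1.39 without LnF1 water, and lost it without a term for parents (0.76, adjusted p = 0.178).

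Single libraries were then set against each other, with no test, and those were counted whose log2 values differed by 1 or more in genes that averaged 5 CPM or more. All but Zfp423, 9 genes, could be counted so. Between ObF1 and LnF1 in 1,3BD, Cebpa alone was lower (-1.51, counting interval -1.66 to -1.36) and none was higher, where 3.02% of 10238 genes were lower and 1.89% higher. Between ObF1 and LnF1 in water, Cebpa (-1.28), Cebpb (-1.26) and Pparg (-1.04) were lower and none was higher, where 1.4% of genes were lower and 1.81% higher. Thus the parental difference of Cebpa had nearly the same size in both treatments. That of Cebpb was -0.48 in 1,3BD and that of Pparg -0.20 in 1,3BD, both smaller than in water.

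Between 1,3BD and water in ObF1, Pparg (1.84), Cebpb (1.15) and Nr2f2 (1.09) were higher and Cebpd (-1.28) lower, where 10.7% of genes were higher and 17.4% lower. Between 1,3BD and water in LnF1, Nr2f2 (1.41) was higher and Cebpd (-1.11) lower, where 8.86% of genes were higher and 14.2% lower. Pparg lay just short of that size in LnF1, at 0.998, and Cebpb was at 0.37. The signed log2 difference of 1,3BD minus water in ObF1, less that in LnF1, was 0.84 for Pparg and 0.78 for Cebpb, which were higher in 1,3BD by more in ObF1 than in LnF1, and 0.26 for Ebf1. For Zfp521 it was 0.50 and for Zfp423 0.49, where levels were lower in 1,3BD by less in ObF1 (-0.28 and -0.20) than in LnF1 (-0.79 and -0.69). Stat5a (0.46) had opposite signs, 0.31 in ObF1 and -0.16 in LnF1. Nr2f2 (-0.32) and Cebpa (-0.22) were higher in 1,3BD by less in ObF1 than in LnF1, and Cebpd (-0.17) was lower in 1,3BD by more, while Gata2 was at 0.01. Whether the treatment acted differently in the offspring groups could not be tested, since 4 libraries leave no residual degree of freedom for that model. The same subtraction holds the library ObF1 water, in which Pparg and Cebpb had their lowest levels.

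**Figure D3:**
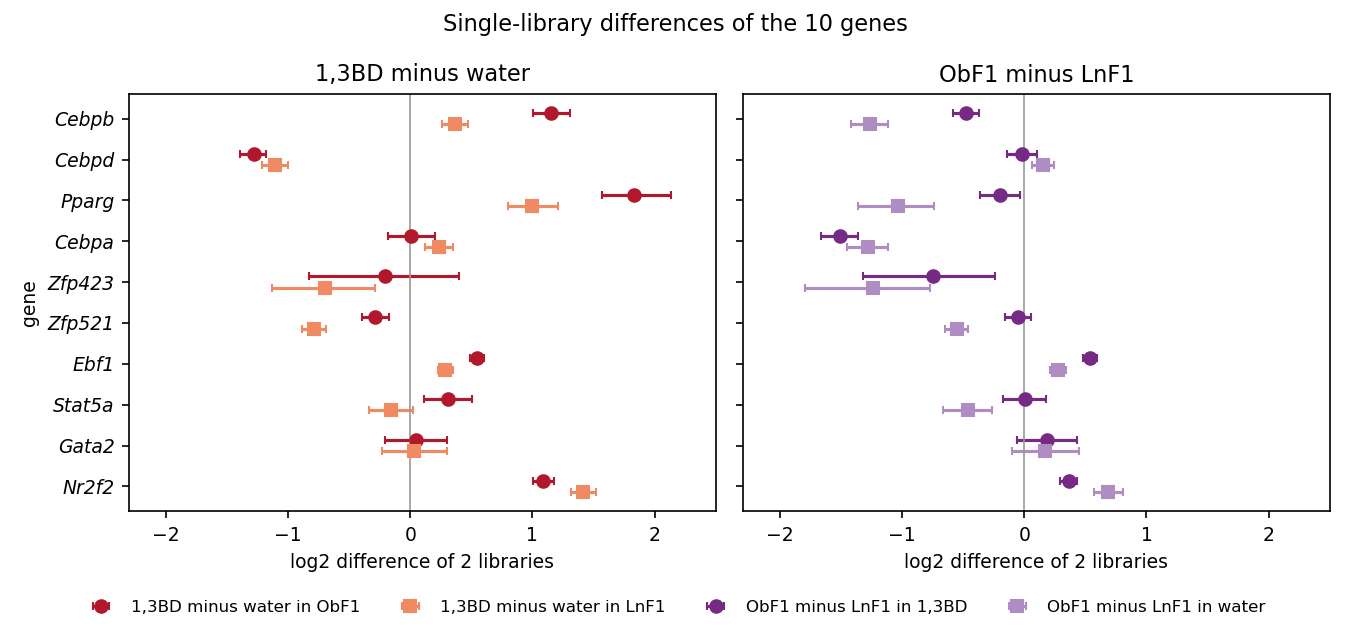
Log2 differences between single libraries for the 10 genes, with bars for exact 95% counting intervals. The differences of Cebpa between ObF1 and LnF1 (-1.51 in 1,3BD and -1.28 in water) lie close together, while those of Pparg (-0.20 in 1,3BD and -1.04 in water) and Cebpb (-0.48 in 1,3BD and -1.26 in water) lie apart.

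Base composition moved with both comparisons across the whole table. Genes were binned by the GC content of their longest transcript. The median log2 difference of 1,3BD minus water was 0.62 in the 839 genes under 40% GC and -0.85 in the 507 genes at 60% GC or more, and 45.4% of the GC-poor genes passed as higher but 3.55% of the GC-rich genes. The median of ObF1 minus LnF1 was 0.13 in the GC-poor and -0.36 in the GC-rich bin. Cebpb and Cebpa have GC-rich transcripts, at 67.2% and 62.6%, and Ebf1 and Nr2f2 have the lowest GC content of the 10, at 43.1% and 45.3%. Cebpb rose with 1,3BD in a bin whose median was -0.85, and the value of Ebf1, 0.42, lay at its bin's median of 0.40.

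With the trend on GC content and exon length removed from each library, an alternative added after the data were seen, 6 of the 10 genes were called higher in 1,3BD and 1 lower, where 20.1% of all genes were called higher and 19.9% lower in that fit. Cebpb stood at 1.88 and Pparg at 1.68, Nr2f2 at 0.97 and Cebpd at -0.87, and Ebf1 at 0.01. Cebpa (1.09, limma adjusted p = 0.000443), Gata2 (0.67, adjusted p = 0.0428) and Stat5a (0.65, adjusted p = 0.0417) passed in that fit but not in the one without removal. For parents, Cebpa stayed lower in ObF1, at -0.99 (adjusted p = 0.0232), and Cebpb moved to -0.30 (adjusted p = 0.878), where 0.436% of all genes were called lower and 0.717% higher.

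**Figure D4:**
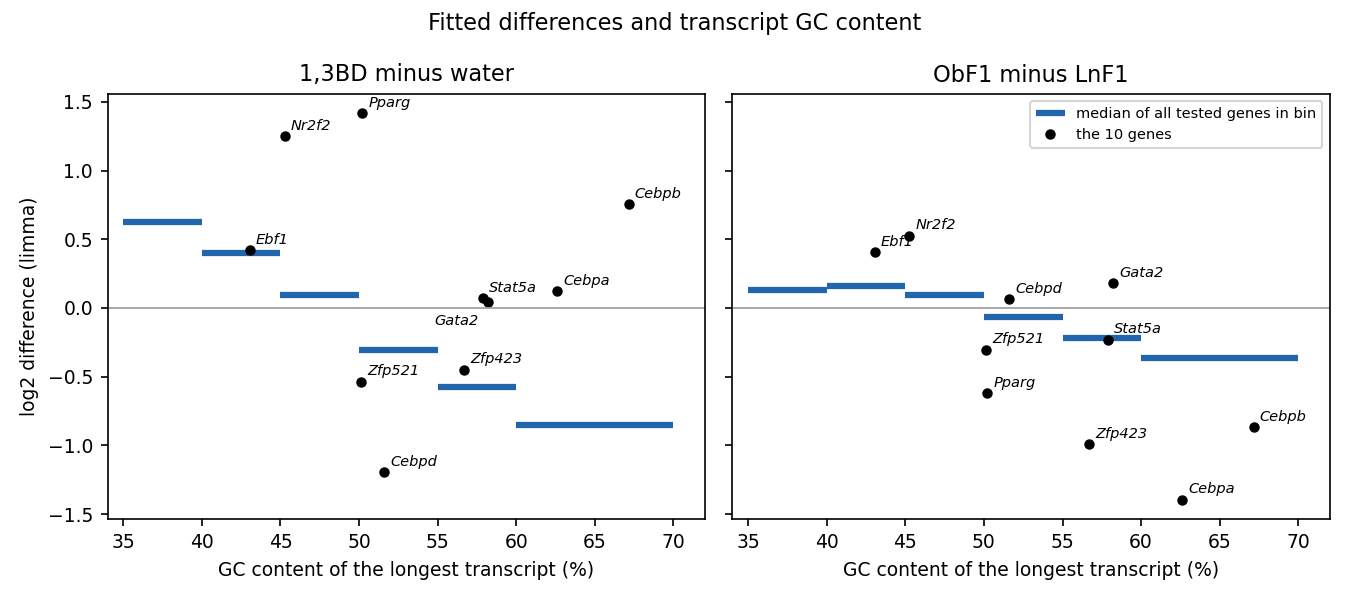
Log2 difference of each of the 10 genes against the GC percentage of its longest transcript, with blue bars for the median of all genes tested in each GC bin. For 1,3BD minus water the bars descend to -0.85 in the most GC-rich bin, where Cebpb (0.76) and Cebpa (0.12) lie above them.

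Other genes of the pathway were followed in 5 lists, chosen with earlier results of these data known. For ObF1 against LnF1, limma called no gene in any of them, where 0.195% of all genes tested were called higher and 0.101% lower. The lists held 18 other factors that promote fat cell formation, all tested, 16 that restrain it, of which 14 were tested, 30 PPARγ and C/EBPα target genes (18 tested), 16 partners and coregulators of PPARγ (14 tested) and 20 relatives of the 10 genes (15 tested). The rest had too few reads. At an unadjusted p under 0.05 these lists held 5, 2, 0, 0 and 2 genes with positive differences in the same order. With negative differences they held 1, 0, 4, 1 and 0, beside 5.36% positive and 5.48% negative over all genes tested. Gata3, a restrainer and a relative, reached the filter of 1 CPM only in the ObF1 libraries. Neither edgeR nor DESeq2 called any listed gene, where edgeR called 0.148% of all genes higher and 0.101% lower and DESeq2 0.537% and 0.374%. With no filter beyond 1 read, 2 target genes were called lower, and 3 promoting factors, 1 restrainer and 1 relative higher. That fit called 196 of 26964 genes higher and 156 lower. Removal of the GC and length trend called 1 promoting factor higher, where 0.717% of all genes were. The medians of the lists were -0.13, 0.16, -0.18, 0.15 and 0.02. Genes named for their high level did not pass, such as Scd1, a fatty acid desaturase and target gene, at 0.45 (adjusted p = 0.474). It stood at 2369 CPM in ObF1 1,3BD, 1909 CPM in LnF1 1,3BD, 243 CPM in ObF1 water and 162 CPM in LnF1 water. Klf9 differed by 0.36, Wwtr1 by 0.28 and Stat3 by -0.21, none of which passed (adjusted p 0.512 to 0.729). 

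For 1,3BD against water, 10 of 18 target genes rose and 4 fell, beside 19.2% and 24.8% of all genes. The list median was 1.01 beside -0.06 over all genes tested. Plin1 reached the filter of 1 CPM in 2 libraries only through 1,3BD and Adrb3 only through water, so the filter fixed their direction. At a mean of at least 5 CPM, 8 targets were called higher and 3 lower, where 1977 and 2511 of 10238 genes were. Fewer were called in each fit with 1 library left out, as over all genes tested. With the GC and length trend removed, 13 were called higher and 2 lower, where 20.1% and 19.9% of all genes were. Another 12 listed targets had too few reads to test, among them Adipoq, Pck1 and Lep with 0 reads in every library. Fabp4, a fatty acid carrier of fat cells, rose to 151 CPM in ObF1 1,3BD and 223 CPM in LnF1 1,3BD, against 8.47 CPM in ObF1 water and 5.94 CPM in LnF1 water (log2 4.68, limma adjusted p = 1.15e-06). Scd1 rose as well (log2 3.42, adjusted p = 1.10e-06). Plin1, a lipid droplet coat protein of adipocytes, rose to 1.84 CPM in ObF1 1,3BD and 5.09 CPM in LnF1 1,3BD, against 1 and 2 reads in ObF1 water and LnF1 water. That is 42.3-fold in ObF1 (counting interval 7.24 to 1704) and 59.98-fold in LnF1 (16.3 to 500.1). Fabp5, a fatty acid carrier found in many tissues, fell to 9.94 CPM in ObF1 1,3BD and 18.001 CPM in LnF1 1,3BD, against 112 CPM in ObF1 water and 86.0 CPM in LnF1 water (log2 -2.86, adjusted p = 7.19e-05).

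**Figure D5:**
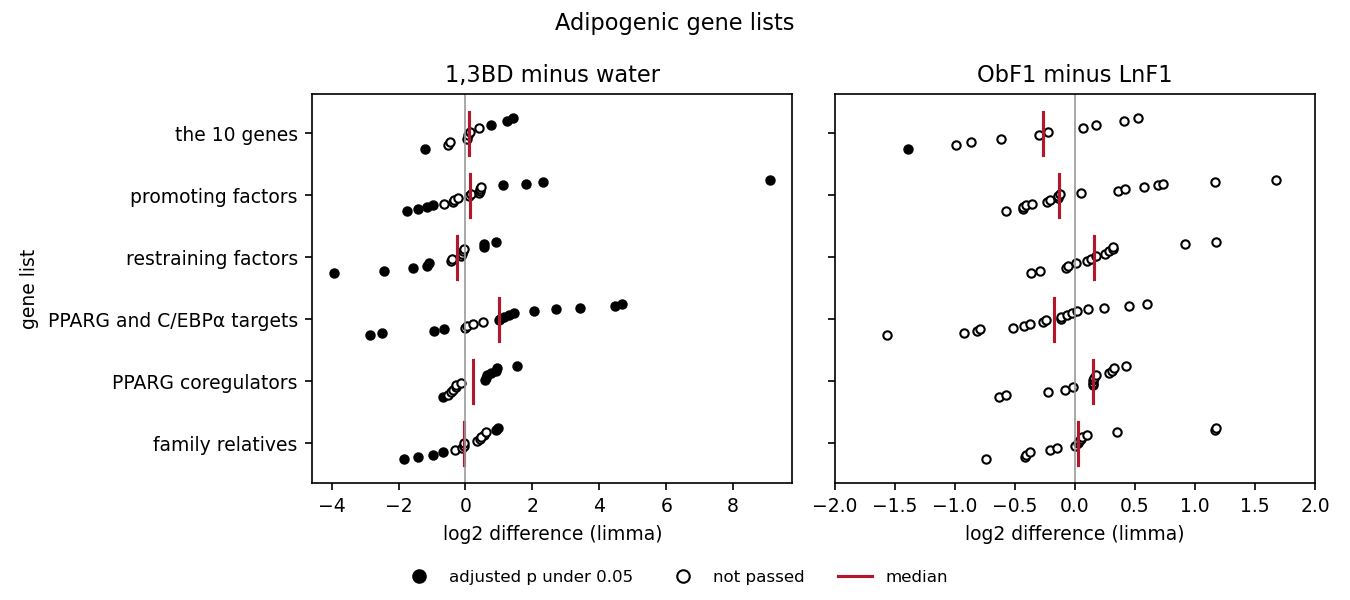
Log2 difference of each tested gene by list, with filled points for an adjusted p under 0.05 and a red line at each list's median. In 1,3BD minus water the target list has a median of 1.01, above the medians of the other lists, and the highest point is Zbtb16, which had 0 reads in both water libraries.

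Of the other promoting factors, 4 of 18 rose with 1,3BD and 4 fell, or 22.2% each, near the 19.2% and 24.8% of all genes tested, with a median of 0.12. Fewer of them were called lower in some fits with 1 library left out, as over all genes tested. Zbtb16, a zinc finger repressor gene, stood at 39.8 CPM in ObF1 1,3BD and 48.7 CPM in LnF1 1,3BD, against 0 reads in both water libraries, at least 305-fold higher in ObF1 and at least 382-fold higher in LnF1 when 3 reads are taken as the floor of each water library. Klf9, a Krüppel-like factor gene, rose to 323 and 261 CPM in ObF1 1,3BD and LnF1 1,3BD, against 67.8 and 50.9 CPM in ObF1 water and LnF1 water (log2 2.30). Bcl6, a transcriptional repressor gene, rose as well (log2 1.82), and Zfp467, a zinc finger gene, fell (log2 -1.74). Zbtb16 reached the filter only through the 1,3BD libraries, so the filter fixed its direction. With Zbtb16 at its bound the list median stayed at 0.12.

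Of the other restraining factors, 3 of 14 rose (21.4%) and 5 fell (35.7%), beside 19.2% and 24.8% of all genes tested, with a median of -0.26. Fewer were called in some fits with 1 library left out, as over all genes tested. Without a term for parents 1 was called higher, where 1866 of 12838 genes were. Klf2, a Krüppel-like factor gene of quiescent vessels and preadipocytes, fell to 1.69 and 0.968 CPM in ObF1 1,3BD and LnF1 1,3BD, against 18.9 and 22.4 CPM in ObF1 water and LnF1 water (log2 -3.92, limma adjusted p = 1.11e-05). Hes1, a Notch target gene, differed by -2.44, Srf, the serum response factor gene, by -1.58 and Klf7 by -1.14, and all passed. Acta2, the smooth muscle actin gene, was at 165 and 113 CPM in ObF1 1,3BD and LnF1 1,3BD, against 8097 and 7692 CPM in ObF1 water and LnF1 water.

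Among partners and coregulators of PPARγ, 7 of 14 rose with 1,3BD (50%) and 1 fell (7.14%), beside 19.2% and 24.8% of all genes tested, with a median of 0.23. Fewer were called higher in each fit with 1 library left out, as over all genes tested, and the number called lower varied between these fits. With library totals none was called lower, where 17.7% of all genes were. Nrip1, a corepressor gene that acts in metabolic tissues, rose most (log2 1.55), followed by the corepressor gene Ncor1 (0.94), the acetyltransferase gene Ep300 (0.91) and the Mediator gene Med1 (0.76). Rxra, which encodes the partner with which PPARγ binds DNA, did not pass (-0.36, adjusted p = 0.167). Of the relatives of the 10 genes, 3 of 15 rose (20%) and 4 fell (26.7%), near the 19.2% and 24.8% of all genes tested, with a median of -0.03. Fewer were called in some fits with 1 library left out, as over all genes tested. With library totals 5 were called higher, where 28.7% of all genes were. With the GC and length trend removed 6 were called higher, where 20.1% of all genes were. Cebpz rose (log2 0.97), whereas Nr2f6, a relative of Nr2f2, fell (-1.83). Stat5b, the close relative of Stat5a, fell to 12.9 and 20.5 CPM in ObF1 1,3BD and LnF1 1,3BD, against 30.2 and 33.8 CPM in ObF1 water and LnF1 water (log2 -0.97, adjusted p = 0.00714). Stat5a itself did not pass in this comparison.

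The genes whose pattern was most like each of the 9 genes with a mean of at least 5 CPM were ranked among 9959 genes. The measure was the Euclidean distance between centred log2 levels over the 4 libraries. Genes whose symbols begin with Gm and a digit, or hold Rik, were left out of this ranking. With 4 points, such likeness is a description only. Kcnq1ot1, a long noncoding RNA, was nearest to Pparg at a distance of 0.05, followed by Thbd (0.14) and Adamts9 (0.17). The pattern of Cebpa was the least shared of the 9, with its nearest gene, Wdr90, at 0.35, then Greb1l (0.39) and Gfra1 (0.41). Cebpb was nearest to Glis1, Prickle2 and Rnf144a, and Cebpd to Ptprf, Pdcl3 and Opa3. Nr2f2 was nearest to Dcun1d3, Glrb and Cpox, Ebf1 to Fam120a, Ap3b1 and Rufy2, and Zfp521 to Zfp362, Rpl28 and Gstp1. Gata2 was nearest to Lonp1 (0.01), Bcl9 and Mtmr2, and Stat5a to Dynlt1c, Borcs8 and Plcl1. No other one of the 10 genes was among the 3 nearest of any.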

How the data were processed

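The 4 pooled SVF libraries were made from TRIzol-extracted RNA with the KAPA mRNA HyperPrep Kit, per the labels' protocols. The submitters' processing notes list mm10, edgeR and DESeq2, with neither role nor version. Aligner, counter, annotation and strand use: not given in the sources used here. Although called raw counts, the deposited values are a scaled signal. Dividing each column by its smallest nonzero value gave whole reads for 100% of values (relative tolerance 1e-06), and the implied factors were 0.885 to 1.13. Columns that name no treatment were matched to water.

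The test was limma 3.58.1 (R 4.3.3) with trend and robust moderation on the 12838 genes that reached 1 CPM in 2 or more libraries. It was also run on simulated reads that held changes of 1 factor only and no GC trend, unlike the data. Adjusted p covers all genes tested, with a threshold of 0.05. edgeR 4.0.16 and DESeq2 1.42.0 were run on recovered reads. Further alternatives were pseudocounts, filters, scalings, no covariate and each library left out. Removal of the GC and length trend was added after the data were seen. Coordinates are from the GRCm38 annotation. Named genes were the 10, per list and comparison up to 4 with the largest differences among those that passed or else the most abundant, and the 3 nearest in pattern. A few genes that this rule names are not reported here. Acta2, Rxra and the targets at 0 reads were named after their values were seen. The 10 genes and the lists were chosen with earlier results of these data known.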

Additional observations from a re-analysis of the deposited data

Results flagged for a closer look

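Cebpd and Stat5a had differences of opposite sign in the libraries compared, and whether they differ was not tested. For Cebpd, ObF1 minus LnF1 was -0.0211 on the log2 scale in 1,3BD and 0.152 in water, which differ by -0.173. For Stat5a, ObF1 minus LnF1 was 0.00295 in 1,3BD and -0.462 in water, and 1,3BD minus water was 0.307 in ObF1 and -0.158 in LnF1, each pair differing by 0.465. The counting intervals of Cebpd in 1,3BD (-0.144 to 0.102), of Stat5a between ObF1 and LnF1 in 1,3BD (-0.176 to 0.182) and of Stat5a between 1,3BD and water in LnF1 (-0.338 to 0.0210) include 0.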

How the results depend on the processing

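No paired analysis was possible because the labels carry no replicate numbers and each combination has 1 library. For ObF1 against LnF1, the 25 genes higher and 13 lower became 196 and 156 with no filter beyond 1 read, 10 and 5 at a mean of at least 5 CPM, 69 and 48 by DESeq2, 92 and 56 with the GC and length trend removed, and 0 and 0 with no covariate. Library totals gave 16 higher. With 1 library left out they numbered 0 to 0 higher and 0 to 2 lower. Of the 10 genes, 1 lower became 2 with no filter beyond 1 read (Cebpb was added), 0 at a mean of at least 5 CPM, 0 with no covariate and 0 to 0 with 1 library left out. For 1,3BD against water, 1 library left out gave 668 to 1926 genes higher and 1232 to 2731 lower, and 0 to 2 of the 10 genes higher, and the trend removed gave 6 higher.

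Some differences that had not passed changed sign. Fits with 1 library left out shift values by design, as described below, and other causes were not tested. For ObF1 minus LnF1, Cebpd was -0.042 with library totals. With 1 library left out, Cebpd ranged from -0.58 (without ObF1 water) to 0.71, Pparg from -1.54 to 0.30 (without ObF1 water), Zfp521 from -0.70 to 0.090 (without LnF1 water) and Nr2f2 from -0.18 (without LnF1 water) to 1.23. For 1,3BD minus water, Zfp423 was 0.091 with the trend removed. With 1 library left out, Cebpa ranged from -0.63 (without LnF1 1,3BD) to 0.88, Zfp423 from -1.07 to 0.17 (without LnF1 water), Gata2 from -0.051 (without ObF1 1,3BD) to 0.13 and Stat5a from -0.16 (without ObF1 water) to 0.31. The 5 differences that had passed kept their direction under all 15 alternatives and passed in 9 (Cebpa, parents), 12 (Pparg), 13 (Nr2f2), 11 (Cebpb) and 15 (Cebpd) of them. A fit with 1 library left out drops the other factor, which then adds to its spread. Such a fit sets a lone library against libraries of both levels of that factor. Its value thus also holds part of the other factor's difference, and it assumes that a lone library varies like the others. Zfp423, with 47 to 116 reads, was not tested at a mean of at least 5 CPM.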
